A study of Arabidopsis thaliana with 6 samples.

Results

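Polyamine synthesis genes were examined in Arabidopsis thaliana root cells sorted at G2/M, the stage of entry into and passage through mitosis, and in complete root meristems. The 10 genes were listed by locus code as S-adenosylmethionine decarboxylases (4 genes), arginine decarboxylases, and spermidine, spermine and thermospermine synthases (6 genes together). A gene was kept where the array annotation gave it a probe set of exactly 1 gene. This left 3 of the 10, and all 3 are S-adenosylmethionine decarboxylases: AT3G02470 (SAMDC), AT5G15950 and AT3G25570. Each has a single probe set, and they stand among 13355 genes with such a probe set. The other 7 genes were AT5G18930 (BUD2), AT2G16500 (ADC1), AT4G34710 (ADC2), AT1G23820 (SPDS1), AT1G70310 (SPDS2), AT5G53120 (SPDS3) and AT5G19530 (ACL5), and they were not analysed here. AT5G53120, though also named SPDS3, was listed as the spermine synthase.

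The series comprised 6 arrays of accession Col-0, with 1 RNA sample on each. In 3 samples, cell sorting by fluorescence (FACS) had collected G2/M cells of roots carrying a CYCB1;1-GFP reporter, in which a B-type cyclin of the late cell cycle marks dividing cells. In the other 3, whole meristems had been cut from roots under a microscope, and the labels do not say whether these plants carried the reporter. Each group is described as 3 biological replicates; plant age and the number of roots per sample were not given in the sources used here, and the labels mention both long days and continuous light for growth. The meristem holds cells of every cycle phase and tissue layer, and only the sorted group was sorted, so phase, cell makeup and handling cannot be told apart.

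Polyamines are small, positively charged molecules that bind nucleic acids and ribosomes and are needed for cell growth. In Arabidopsis putrescine is made from arginine, and spermidine, spermine and thermospermine follow by the addition of aminopropyl groups. S-adenosylmethionine decarboxylase makes the donor of those groups, decarboxylated S-adenosylmethionine, and so feeds all 3 synthases. Its plant messenger RNAs are known for a small upstream reading frame through which polyamines repress translation, so a transcript level is not an enzyme level.

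The 3 measured genes differed in pattern. AT5G15950 stood far higher in the sorted cells, SAMDC was high in both groups and slightly lower in the sorted cells, and AT3G25570 stood at or next to the floor on every array. Values are the authors' log2 values; the floor is the lowest value of the table, 2.27, and a level within 0.5 of it is taken as background. All differences are sorted cells minus meristems. The listed genes were chosen by their place in the pathway, but with the log2 differences between these same arrays already known, so for the 3 measured genes the differences are given as a description and no p-value is given.

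AT5G15950 had log2 values of 9.31, 9.39 and 9.61 in sorted replicates 1, 2 and 3 and of 4.86, 4.54 and 4.52 in meristem replicates 1, 2 and 3. The sorted arrays all lay far above the meristem arrays, with no overlap. The group means were 9.44 ± 0.16 and 4.64 ± 0.19 (SD, n = 3 each), a difference of 4.80 log2 (SE 0.14) or 27.8-fold. The meristem level was itself above the floor, so the fold does not start from background. Leaving out any 1 of the 6 arrays gave differences between 4.71 and 4.91 log2.

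SAMDC had log2 values of 10.97, 10.87 and 11.10 in the sorted cells and of 11.29, 11.17 and 11.22 in the meristems. The groups did not overlap, but the highest sorted array lay close below the lowest meristem array. The means were 10.98 ± 0.12 and 11.23 ± 0.06 (SD, n = 3 each), a difference of -0.25 log2 (SE 0.07) or 1.19-fold lower in the sorted cells. The difference lay between -0.31 and -0.19 log2 when any 1 array was left out.

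AT3G25570 had log2 values of 2.27, 2.29 and 2.27 in the sorted cells and of 2.30, 2.30 and 2.27 in the meristems. All 6 values were at or next to the floor and the groups overlapped, so no fold is given. A probe set at the floor shows only that no signal above background was measured in either group.

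**Figure D1:**
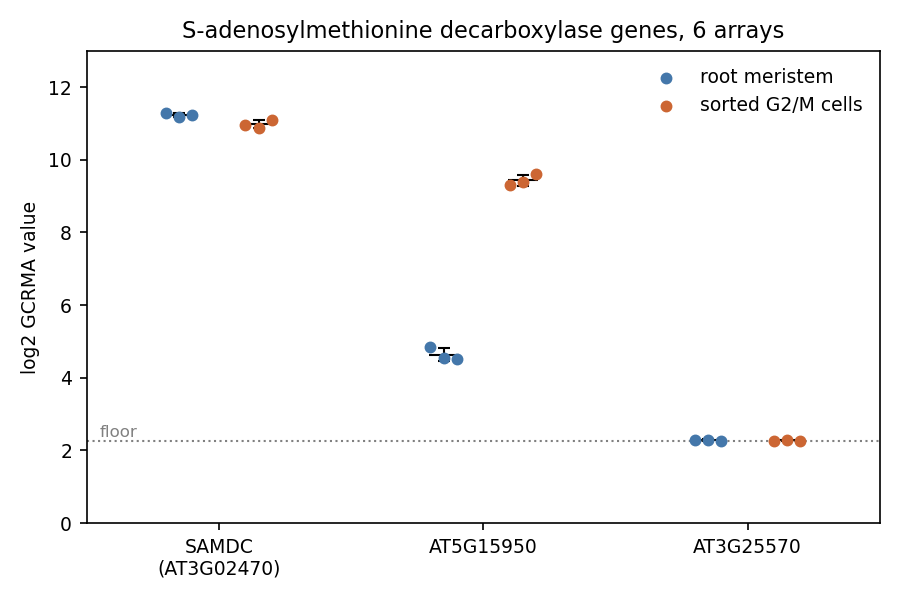
Log2 GCRMA values (vertical axis) of the 3 S-adenosylmethionine decarboxylase genes on the 6 arrays; points are single arrays, bars the mean ± SD of 3 arrays, and the dotted line the floor. AT5G15950 stands at 9.44 (sorted) and 4.64 (meristem), while SAMDC (10.98 and 11.23) and AT3G25570 (2.28 and 2.29) show small differences.

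In a limma fit over all 22746 tested probe sets, with a call at a Benjamini-Hochberg adjusted p under 0.05, 11.5% of probe sets were called, 4.44% as higher and 7.06% as lower in the sorted cells. Of the 3 measured genes 1, AT5G15950, lay past this threshold, which restates a difference already known and is no test of it. The groups did not overlap for 2 of the 3, once in each direction, against 30.7% of all probe sets (14.4% with the sorted cells higher and 16.3% with them lower). Since the contrast was known when the list was drawn up, nothing is read from these counts. The median difference over the 3 genes was -0.01 log2, the value of AT3G25570, and that over all tested probe sets was 0.

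The difference of AT5G15950 was among the largest of the probe sets with signal in both groups. Probe sets near the floor in either group were not ranked. Of 12570 probe sets above the background margin in both groups, AT5G15950 ranked 7 from the top in its rise. By size in either direction 21 probe sets, or 0.167%, differed by more. For SAMDC the same count was 7449 probe sets, or 59.3%.

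**Figure D2:**
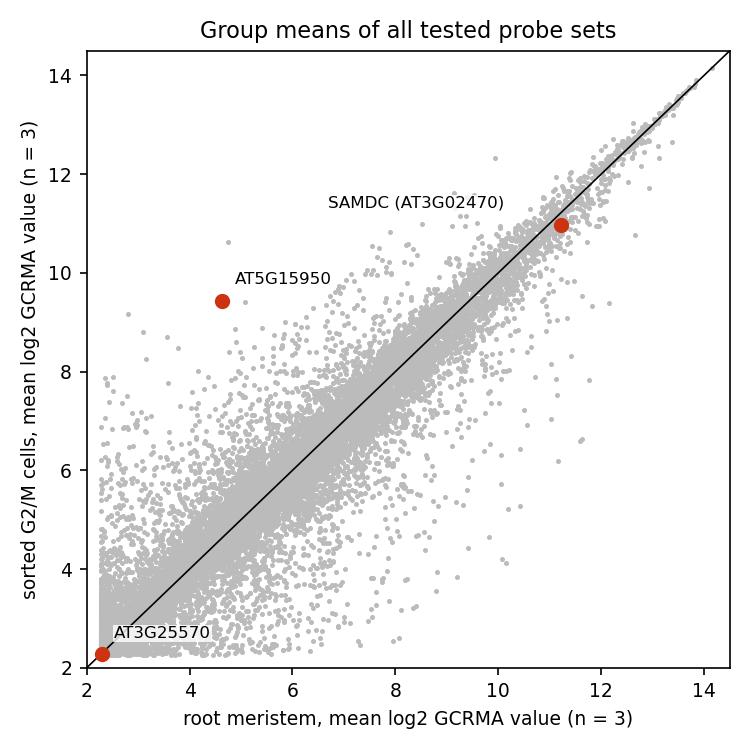
Mean log2 GCRMA value of each tested probe set in the meristems (horizontal axis) and in the sorted cells (vertical axis), n = 3 arrays each; the line marks equal means and the 3 decarboxylase genes are labelled. AT5G15950 lies far above the line at 4.64 and 9.44, SAMDC just under it, and AT3G25570 in the corner of the floor.

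The spread between replicates of a group differed between the genes with signal. The SD of AT5G15950 was 0.16 among sorted and 0.19 among meristem arrays, and that of SAMDC was 0.12 and 0.06. Over the 11504 probe sets with a mean above the median of all values, the median SD was 0.22 among sorted and 0.11 among meristem arrays. AT5G15950 was tighter than most in the sorted cells, where 67.7% of those probe sets had a larger SD, and looser than most in the meristems, where 21.1% did. For SAMDC 78.2% and 75.9% had a larger SD. Within the sorted group both genes were highest in replicate 3, and within the meristems both were highest in replicate 1.

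Other measures moved with the same split of the arrays. The marker lists were drawn up with earlier results of these data known, so their counts are description only. Over all probe sets 4.44% were called higher and 7.06% lower. All 5 measured genes of a list of 13 G2/M markers, the Aurora kinase genes AUR1, AUR2 and AUR3, the spindle checkpoint gene BUBR1 and AT1G63100, were called higher, and the mean level of the list lay between 7.83 and 8.56 log2 in the sorted arrays and between 5.97 and 6.09 in the meristems. All 3 measured genes of a list of 7 stress-responsive genes, AT1G53540, STZ and CML38, were called higher too; their mean level lay between 7.66 and 7.95 log2 in the sorted arrays and between 2.99 and 3.08 in the meristems, where STZ was near the floor. The 3 measured cortex and endodermis genes of a list of 5 were called lower, with mean levels between 3.63 and 3.77 against 6.06 and 6.31 log2. LHW, a regulator of vascular development and the only measured gene of 8 for xylem and procambium, was called lower, at 5.90 to 6.33 log2 in the sorted arrays against 7.17 to 7.34. EXPA7, an expansin of root hairs and the only measured gene of 5 for epidermis, was near the floor except in sorted replicate 1, where it stood at 7.07 log2, and it was not called. With the replicate block, all 3 stress-responsive genes and 1 cortex gene, AT1G09750, kept their calls. LHW lost its call and 0 of the 5 G2/M genes were called. That block called only 235 of all 22746 probe sets, against 2614 without it, so a call lost there says little about a gene. The median difference was 5.14 log2 over the stress-responsive genes and 2.09 log2 over the G2/M genes. The part of these cell types and of the stress response in the difference of AT5G15950 was not tested. In RNA of many cells, fewer cells of a type and less RNA per cell cannot be told apart.

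The control probe sets give a further split. Sorted replicate 1 and the 3 meristems carried signal from the poly-A spike-ins, with a mean over 12 probe sets between 5.87 and 7.34 log2, while sorted replicates 2 and 3 stood at 3.09 and 2.98. Within the arrays that carried the spike-ins, AT5G15950 was 4.67 log2 higher and SAMDC 0.26 log2 lower (a difference of -0.26) in sorted replicate 1 than the mean of the meristems. The remaining sorted arrays gave 4.75 and 4.97 log2 for AT5G15950, so the difference was about as large in each. The 25S ribosomal RNA probe set stood between 12.69 and 13.10 log2 in the sorted arrays and between 11.29 and 11.40 in the meristems, while the gap between the 3' and 5' probe sets of actin, a sign of RNA integrity, overlapped between the groups at 1.24 to 1.52 and 1.26 to 1.55 log2. The same gap for GAPDH was 0.34, 0.08 and 0.17 log2 in sorted replicates 1, 2 and 3 and 0.07 to 0.12 log2 in the meristems, so sorted replicates 1 and 3 lay above every meristem and sorted replicate 2 within their range. The part of these controls in the differences of AT5G15950 and SAMDC was not tested.

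By the root mean square difference between profiles over the 6 arrays, each centred on its own mean, the profiles nearest to AT5G15950 among 13512 other probe sets of 1 gene were those of CML38 and AT2G36220. CML38 encodes a calmodulin-like protein and is also in the list of stress-responsive genes. Its profile lay 0.29 log2 from that of AT5G15950, with values of 9.03, 8.42 and 8.65 in the sorted cells and of 3.68, 3.55 and 3.44 in the meristems. AT2G36220 lay at 0.35 log2, with values of 6.73, 6.34 and 6.54 in the sorted cells and of 2.33, 2.27 and 2.37, near the floor, in the meristems. The 3 profiles share the step between the groups. Within the sorted group the order differed, since CML38 and AT2G36220 were highest in replicate 1 and AT5G15950 was lowest there. SAMDC and AT3G25570 ranged over 0.42 and 0.03 log2 across the arrays, under the range of 1 log2 set for ranking likeness.

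**Figure D3:**
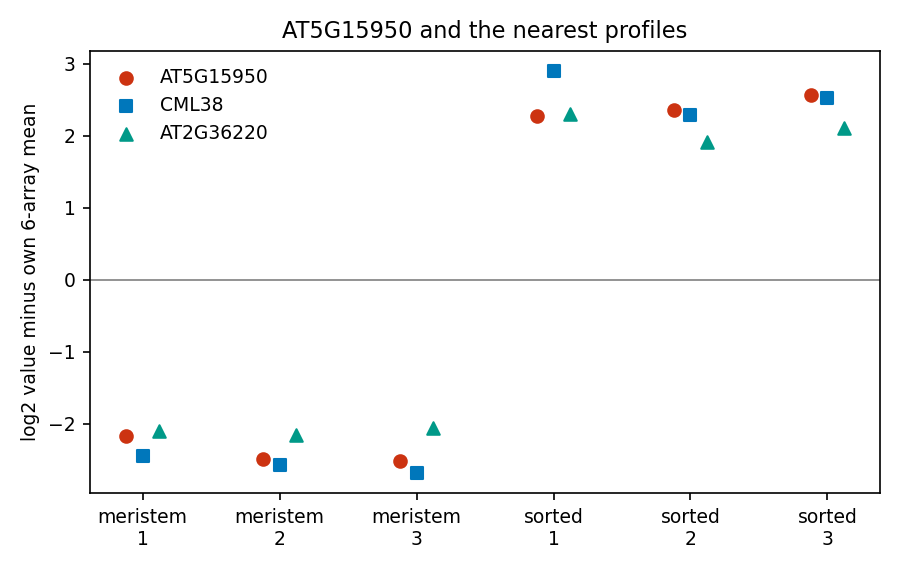
Log2 value minus the gene's own mean over 6 arrays (vertical axis) on each array (horizontal axis) for AT5G15950 and for CML38 and AT2G36220, the genes with the nearest profiles. The points of all 3 genes lie close together on each array, with CML38 highest of the 3 in sorted replicate 1.

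In the limma fit given above, no other measured gene of polyamine metabolism was called higher. OTC and AT4G24830, of arginine synthesis, were called higher when arrays were centred on reference genes and when sorted replicate 1 was left out. Of 67 genes in 10 lists around the pathway 17 were measured. In the main fit 0 were called higher, 2 were called lower and 15 were not called, against a background of 4.44% higher and 7.06% lower among all probe sets. With 17 genes and that background, nothing is read from the absence of higher calls. Of the 17, 7 were near the floor in both groups, and the median difference was 0. Lists for the remaining steps from arginine to putrescine, S-adenosylmethionine synthetases, polyamine transport, the hypusine pathway and ACC synthases had 0 measured genes and were not analysed here.

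Upstream, 4 of 9 listed genes of arginine synthesis were measured and 0 were called, with a median difference of 0.27 log2. AT4G24830 had values of 10.42, 10.86 and 10.73 in the sorted cells and of 10.25, 10.20 and 10.27 in the meristems, a difference of 0.43 log2 (SE 0.13, adjusted p = 0.121). AT4G17830 went the other way, with 7.01, 7.04 and 6.77 against 7.21, 7.33 and 7.29, a difference of -0.34 log2 (SE 0.09, adjusted p = 0.0939). OTC, the ornithine carbamoyltransferase, differed by 0.24 log2 (adjusted p = 0.139) and AT5G10920 by 0.30 log2 (adjusted p = 0.325). The groups did not overlap for any of the 4 genes, as for 30.7% of all probe sets, but none of the 4 passed the test.

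Of the genes that recycle methylthioadenosine, the by-product of each aminopropyl transfer, 1 of 9 was measured. ARD4, an acireductone dioxygenase, had values of 6.34, 6.26 and 6.19 in the sorted cells and of 6.17, 5.86 and 5.83 in the meristems. The groups were separated by a narrow gap, and the difference of 0.31 log2 (SE 0.11, adjusted p = 0.188) did not pass the test.

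Downstream, 6 of 13 listed polyamine and copper amine oxidase genes were measured, of which 3 were at the floor. CuAO1, a copper amine oxidase, which breaks down putrescine and spermidine, had values of 7.02, 6.87 and 6.97 in the sorted cells and of 8.08, 8.01 and 7.83 in the meristems. Every sorted array lay below every meristem array, and the gene fell by 1.02 log2 (SE 0.08, adjusted p = 0.00641), or 2.03-fold. With the replicate number as a block its adjusted p was 0.0694 and the call was lost. The other oxidase genes with signal, AT2G42490 (-0.26 log2, adjusted p = 0.485) and AT3G43670 (-0.25 log2, adjusted p = 0.613), had overlapping groups.

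Among 6 listed genes of polyamine conjugation 4 were measured, 0 were called and 3 were near the floor. SHT and SDT, transferases that attach phenolic acids to spermidine, were listed at the floor on all arrays. AT2G25150 had values of 2.41, 2.34 and 2.27 in the sorted cells against 2.27 on every meristem array (adjusted p = 0.379). AT2G39020, whose synonym is NATA2, had 7.84, 8.40 and 8.19 against 7.88, 7.96 and 7.92, a difference of 0.22 log2 (SE 0.16, adjusted p = 0.517) with overlapping groups.

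Of 4 listed genes of the thermospermine response 2 were measured. AT5G50010 stood at 2.27, 2.30 and 2.27 in the sorted cells, at or next to the floor, and at 2.86, 3.11 and 3.42 in the meristems. It was called lower by the limma fit, with a difference of -0.85 log2 (SE 0.15, adjusted p = 0.0401), and because the sorted level is background no fold is given. The call was lost with the replicate block (adjusted p = 0.143), the spike-in block (0.148) and the trended prior (0.0733), and also without any 1 of sorted replicates 1, 2 and 3 (0.0847, 0.108 and 0.142) or of meristem replicates 2 and 3 (0.146 and 0.051). AT5G09460 was near the floor in both groups, between 2.44 and 2.69 log2 over the 6 arrays.

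**Figure D4:**
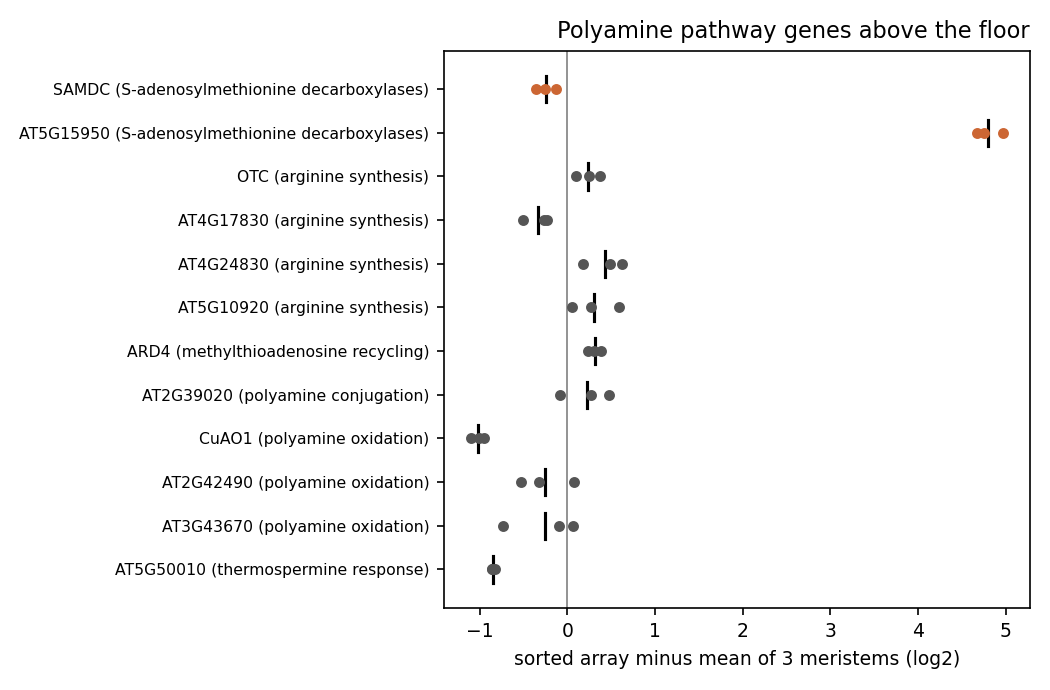
Difference of each sorted array from the mean of the 3 meristems (horizontal axis, log2) for the decarboxylase genes and the listed pathway genes that were above the floor margin in at least 1 group; points are the 3 sorted arrays and the bar their mean. AT5G15950 lies between 4.67 and 4.97, and the other genes between -1.10 and 0.62.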

How the data were processed

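Transcripts were measured on 6 Affymetrix arrays, 3 of sorted G2/M cells and 3 of root meristems. The values are the authors' deposited log2 values for each probe set, made with GCRMA per the submitters' processing notes; that method models background by probe composition, normalizes arrays together and combines the probes of a set. The GCRMA version and any genome build were not given in the sources used here, so no coordinates are given. GCRMA compresses low signals at a floor, and 28.2% of the tested values were at it, so differences near the floor are uncertain. Arrays have no read depth; their number limits the precision.

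Of 22810 probe sets, 64 controls were left out. Among the other 22746, 13513 had 1 gene in the platform annotation, 503 had several and 8730 were unnamed here. Names came from RefSeq (assembly TAIR10.1) for 13436. Where probe sets shared a gene, the brightest on average was used.

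The groups were compared with limma 3.58.1 in R 4.3.3 (lmFit, eBayes without trend or robust prior; 0.391 prior and 4 residual degrees of freedom) on all 22746 probe sets without a filter, with Benjamini-Hochberg adjustment over all of them, and the script was tested on simulated data. P-values weigh the group difference against the spread between these samples only. Members and lists were chosen with earlier results of these data known. The genes named were every member; from each pathway list the called genes, up to 4, or else the 2 with the smallest p; and the 2 nearest profiles of each member ranging over more than 1 log2. OTC, AT5G10920, AT2G42490, AT3G43670, AT5G09460, SHT and SDT, and the marker genes named, were added after their values were seen. The deviations of same-numbered samples from their group means were weakly and positively correlated (0.12, 0.25 and 0.11 over 11504 probe sets with a mean above the overall median). Correlations between differently numbered samples were not computed, so a pairing by number is possible from the data alone but not established. The main fit and its calls left the number out, and the block is given as an alternative. Arrays within the sorted group correlated at 0.967 to 0.989 and within the meristems at 0.996 to 0.997. Alternatives were a trended robust prior, the replicate block, a block for the poly-A spike-ins, a filter at the median level, centring on reference genes or on expressed probe sets, and leaving out each array. No sequences were used here, and the planned motif search was not run.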

Additional observations from a re-analysis of the deposited data

How the results depend on the processing

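Under the 12 alternatives the difference of AT5G15950 lay between 4.67 and 4.91 log2 and that of SAMDC between -0.31 and -0.19 log2, given as descriptions. Over all probe sets, 2614 calls (38.6% of them higher) became 1249 with the trended robust prior, 235 with the replicate block and 4447 (55.6% higher) with each array centred on 9 reference genes. Without 1 array they ranged from 959 to 3383, with 3383 without sorted replicate 1, 1168 without sorted replicate 3, and 1023, 959 and 1161 without meristem replicates 1, 2 and 3. The 2 calls among pathway genes became 1 with the trended prior, where AT5G50010 lost its call. They also became 1 with the filter at the median level, which drops AT5G50010 untested. They became 0 with the replicate block (CuAO1 0.0694, AT5G50010 0.143). With reference centring they became 4, which added OTC (adjusted p = 0.0185) and AT4G24830 (0.0137). Without 1 array they ranged from 1 to 3, with OTC (0.0402) and AT4G24830 (0.0192) called without sorted replicate 1. With the spike-in block AT3G43670 was called instead of AT5G50010 (-0.73 log2, adjusted p = 0.0351); that block compares 1 sorted array with the meristems. The median difference of the decarboxylase genes, -0.01 log2, became 0.0422 with reference centring, 0 with centring on expressed probe sets, and 2.275 with the filter, which drops AT3G25570 and leaves 2 genes. The replicate block changed no other call among the pathway genes. The cause of the other changes was not tested. No member has another probe set of 1 gene, so that alternative gave no value.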

Other observations

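The genes next to the decarboxylase loci in the RefSeq gene order were compared after the values were seen, taking the nearest gene with a probe set of its own on each side. The gene before AT5G15950, AT5G15940, went the other way, with 3.35, 3.53 and 3.17 log2 in the sorted cells against 5.14, 4.90 and 3.91 in the meristems, a difference of -1.30 log2 (limma adjusted p = 0.115). The nearest measured gene after it, AT5G15980, lies beyond KIN1 and KIN2, which were not analysed here, and differed by 0.48 log2 (adjusted p = 0.129). Neither neighbour showed a difference near the 4.80 log2 of AT5G15950.

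Beside SAMDC, AT3G02480 stood at 5.68, 3.61 and 3.36 log2 in sorted replicates 1, 2 and 3 and near the floor in the meristems (2.34, 2.27 and 2.27), and it was not called (adjusted p = 0.192). On the other side AT3G02460 had overlapping groups (-0.35 log2, adjusted p = 0.702). The measured genes nearest to AT3G25570, which was itself at or next to the floor, had signal on every array: AT3G25545 between 6.56 and 7.28 log2 and AT3G25580 between 6.78 and 7.37 log2. None of the 6 neighbours was called, against 11.5% of all probe sets, and nothing is read from this count. The groups did not overlap for AT5G15940, AT5G15980, AT3G02480 and AT3G25580, as for 30.7% of all probe sets.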
